A study of Mus musculus with 108 samples.

Results

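The loci described here are those of 9 genes for endothelial receptors and junction proteins: Kdr, Flt1, Flt4, Tek, Tie1, Cdh5, Pecam1, Eng and Emcn. A locus was taken as the gene body and 100 kb on each side (GENCODE vM21, mm10), and a member was any listed reporter fragment that overlapped it. The rule used gene names and positions, with no measured value. The 9 loci, of 21924 protein-coding loci, held 3210 of the 1176712 distinct fragments listed over all sorted libraries, and these fell into 206 of 76765 merged sites, a site being a run of overlapping distal or overlapping promoter fragments.

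The fragments come from a reporter screen in HM-1 mouse embryonic stem cells. Open chromatin was cut out with the transposase Tn5, cloned in front of the minimal HSP68 promoter and the Venus-YFP fluorescent protein, and integrated by homologous recombination at the Hprt locus. The cells were then differentiated in serum and sorted at 5 stages. These were undifferentiated ES cells, haemangioblast cells (HB, FLK1+), an earlier and a later haemogenic endothelium, both KIT+ and TIE2+, that lacked CD41 (HE1) or carried it (HE2), and haematopoietic progenitors (HP) that were KIT+ and CD41+ but TIE2-. YFP brightness set the gates, which at each stage were Negative, Low, Medium and High for replicates 1 to 4 and Negative, Low and a merged Medium/High for replicate 5, giving 95 sorted libraries. FLK1 is the product of Kdr and TIE2 is the product of Tek, so the proteins of 2 of the 9 genes were used to collect the stages. Every stage, ES included, descends from the same parental line, and all fragments share the same promoter, reporter and integration site. The lists give fragments and no transcripts, so the stage labels could not be held against marker gene expression. The labels number the replicates and do not say that they were separate differentiations, so p-values measure the spread between these samples, which may be technical.

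VEGFR2 (Kdr), VEGFR1 (Flt1) and VEGFR3 (Flt4) are the tyrosine kinase receptors of the vascular endothelial growth factors. VEGFR2 carries most of the growth signal in endothelium, VEGFR1 binds VEGF-A tightly and acts largely as a decoy, and VEGFR3 binds VEGF-C in lymphatic vessels. TIE2 (Tek) binds the angiopoietins and TIE1 is its partner receptor. VE-cadherin (Cdh5) and PECAM1 hold endothelial cells together, endoglin (Eng) is a co-receptor for BMP9 and the TGF-beta family, and endomucin (Emcn) is a sialomucin of the venous and capillary surface. Several of these genes are on in haemogenic endothelium and fall when blood cells bud from it. Transcription factors of the ETS family, with GATA, RUNX and SOX factors, are well known to bind their enhancers.

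Fragment totals for a set (the Low, Medium, High and merged Medium/High lists of a stage and replicate joined as positive, or the Negative list) were very unequal. Positive sets held 66597 to 229660 listed fragments in replicates 1 and 2 and 1552 to 37381 in replicates 3 to 5, and Negative sets held 23322 to 131036 and 720 to 18728. Levels are therefore given per 10000 listed fragments of the set. Counts at single sites are fragments as listed, not corrected for list size. Pooled over replicates, positive sets listed 239751, 288679, 446578, 353255 and 269630 fragments from ES to HP. Negative sets listed 88708, 97102, 181319, 75509 and 81859. Site counts alone therefore do not compare stages, or positive with Negative sets. At HE1, 2 pairs of libraries of different gate and replicate shared most of their fragments: Negative replicate 1 and Medium replicate 2 shared 89445 (78.5% of the smaller list), and Negative replicate 3 and Low replicate 4 shared 5683 (83.0%). The main HE1 values are also given without all 4 libraries.

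Across the loci, fragments were unevenly placed. Per 100 kb of locus, Eng held 510 distinct fragments, Tie1 192, Pecam1 182, Flt4 124, Cdh5 97.6, Kdr 85.5, Flt1 63.4, Tek 15.8 and Emcn 5.15. A large part of the first 4 belonged to other genes' starts. At Tie1, 63.8% of the fragments were promoter fragments within 1.5 kb of another protein-coding gene's start, at Flt4 61.1%, at Pecam1 52.6% and at Eng 41.2%, against 4.22% at Cdh5 and 0% at Kdr, Flt1, Tek and Emcn. The neighbouring starts with more fragments than the member's own included those of Cdk9, St6galnac4, Tor2a and Dpm2 around Eng, Cnot6 near Flt4, the shared start of Ddx5 and Cep95 and that of Tex2 near Pecam1, and Cdc20 and Elovl1 near Tie1. For example, the Cnot6 start held 184 fragments and the Flt4 start 23, and the Cdc20 start held 109 and the Tie1 start 68. In Kdr, Flt1 and Cdh5 most fragments were distal, with 156 of 210, 181 of 231 and 202 of 237. The Emcn locus held 15 fragments, all distal, and none at its start.

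**Figure D1:**
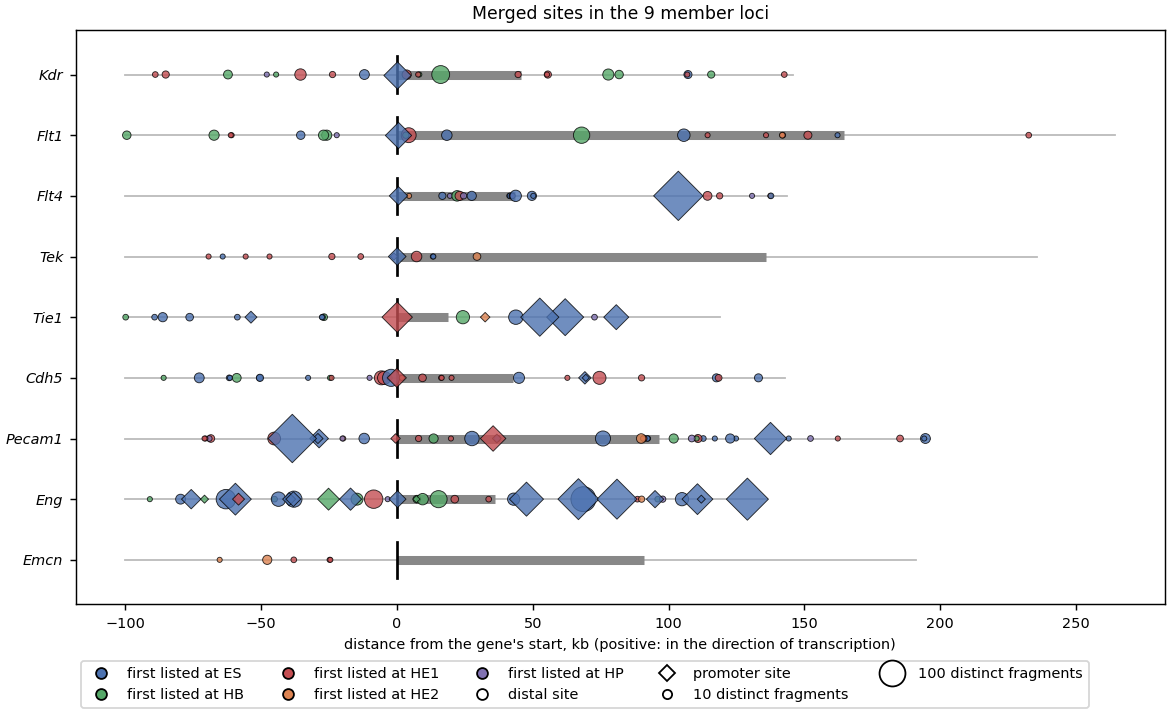
Merged sites of the 9 loci by distance from the gene's start in kb (x axis), 1 row per gene; the thick bar is the gene body, the thin line the 100 kb flanks, circles are distal and diamonds promoter sites, area grows with distinct fragments, and colour gives the first stage at which any sorted list held the site. The start sites of Kdr, Flt1, Flt4, Tek and Eng were listed from ES on, while those of Tie1 and Cdh5 and the internal start of Pecam1 were first listed at HE1.

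The 7 windows below are 300 bases around the position that most fragments of a site covered (mm10, plus strand), and they are shown because these sites held no fragment in any ES list and are among the 3 most populated distal sites of their genes. They are 7 of 18 such sites, picked after values were seen to cover 6 genes, so what they hold in common is no result. Capitals mark the ETS core AGGAAG and the GATA core AGATAA on either strand.
Kdr +16.1 kb, chr5:75962221-75962520: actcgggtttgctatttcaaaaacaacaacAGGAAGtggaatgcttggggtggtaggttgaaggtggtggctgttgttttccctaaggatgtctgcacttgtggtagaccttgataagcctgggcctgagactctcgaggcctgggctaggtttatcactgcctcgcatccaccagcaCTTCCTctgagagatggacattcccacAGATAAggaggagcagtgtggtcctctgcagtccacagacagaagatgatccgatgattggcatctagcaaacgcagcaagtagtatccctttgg
Flt1 +68.0 kb, chr5:147657893-147658192: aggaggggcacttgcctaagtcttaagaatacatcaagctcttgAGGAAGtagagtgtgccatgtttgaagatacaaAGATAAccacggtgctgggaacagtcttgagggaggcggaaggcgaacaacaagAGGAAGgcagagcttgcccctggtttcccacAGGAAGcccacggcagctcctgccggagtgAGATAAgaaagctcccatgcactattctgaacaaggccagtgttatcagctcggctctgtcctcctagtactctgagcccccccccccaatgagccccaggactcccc
Cdh5 -5.77 kb, chr8:104095706-104096005: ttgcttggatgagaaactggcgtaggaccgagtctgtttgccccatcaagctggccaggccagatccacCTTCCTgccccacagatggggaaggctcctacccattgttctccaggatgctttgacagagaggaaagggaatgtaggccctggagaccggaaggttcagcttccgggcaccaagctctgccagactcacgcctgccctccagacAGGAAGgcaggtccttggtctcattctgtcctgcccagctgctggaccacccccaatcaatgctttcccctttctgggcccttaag
Cdh5 -4.73 kb, chr8:104096747-104097046: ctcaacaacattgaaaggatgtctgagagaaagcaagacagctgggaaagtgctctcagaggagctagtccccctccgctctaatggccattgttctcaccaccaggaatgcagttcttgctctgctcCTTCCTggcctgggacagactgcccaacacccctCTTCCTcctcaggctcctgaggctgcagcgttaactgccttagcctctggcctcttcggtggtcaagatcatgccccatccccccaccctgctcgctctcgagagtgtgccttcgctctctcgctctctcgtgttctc
Eng -8.59 kb, chr2:32637855-32638154: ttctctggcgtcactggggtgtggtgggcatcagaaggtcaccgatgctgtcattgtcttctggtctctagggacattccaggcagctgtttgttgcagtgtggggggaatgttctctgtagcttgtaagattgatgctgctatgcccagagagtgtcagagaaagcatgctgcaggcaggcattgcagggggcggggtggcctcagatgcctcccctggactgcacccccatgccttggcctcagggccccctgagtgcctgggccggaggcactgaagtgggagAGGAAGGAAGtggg
Tek +7.20 kb, chr4:94746341-94746640: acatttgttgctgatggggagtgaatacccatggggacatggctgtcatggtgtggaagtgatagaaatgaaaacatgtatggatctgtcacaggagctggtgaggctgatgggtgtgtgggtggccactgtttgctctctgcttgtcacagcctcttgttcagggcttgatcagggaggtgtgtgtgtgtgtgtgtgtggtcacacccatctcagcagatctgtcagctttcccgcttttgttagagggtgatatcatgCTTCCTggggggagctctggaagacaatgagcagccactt
Pecam1 -45.2 kb, chr11:106795705-106796004: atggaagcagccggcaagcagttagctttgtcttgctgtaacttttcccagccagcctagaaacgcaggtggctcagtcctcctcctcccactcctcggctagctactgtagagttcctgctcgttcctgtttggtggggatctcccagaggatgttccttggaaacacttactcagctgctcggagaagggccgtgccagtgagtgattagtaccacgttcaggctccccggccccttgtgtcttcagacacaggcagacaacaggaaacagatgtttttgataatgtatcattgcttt
The Kdr, Flt1 and Tek windows lie in introns of these genes, those of Cdh5 and Eng in intergenic sequence before the gene, and that of Pecam1 in an intron of Cep95. The 250 bases before the Kdr start, from RefSeq (GRCm38.p6, minus strand), are given for comparison, since that start was listed at every stage.
Kdr before its start, chr5:75978456-75978705: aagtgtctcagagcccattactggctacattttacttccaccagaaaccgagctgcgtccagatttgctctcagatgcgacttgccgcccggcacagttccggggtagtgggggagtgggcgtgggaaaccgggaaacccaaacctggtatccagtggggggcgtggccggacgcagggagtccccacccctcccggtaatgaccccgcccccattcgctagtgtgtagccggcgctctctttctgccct
Of the 27 distal sites named by the rule of choice (the 3 with most fragments per locus), 19 windows (70.4%) held AGGAAG, against 90 of 167 (53.9%) over all distal sites of the 9 loci and 49.3% over all 58911 distal sites. Of the 18 without an ES fragment, 14 held it, and of the other 9, 5 did. AGATAA was in 4 of 27 (14.8%) and in 18.6% of all distal sites. TGANTCA (AP-1) was in 5 (18.5%, all sites 16.6%), GGAATG (TEAD) in 7 (25.9%, all sites 19.8%), CAGATG (E-box) in 7 (25.9%, 25.4%), ACAATG (SOX) in 7 (25.9%, 16.8%) and TGTGGT (RUNX) in 7 (25.9%, 25.7%). Of the 8 start sites, 1 held AGGAAG (12.5%), where 32.3% of all promoter sites did. The motifs can overlap each other. The Flt1 +68.0 kb window held 3 matches to AGGAAG and 2 to AGATAA, the Kdr window 2 and 1, the Tek window 1 and 0, and each of the Cdh5 and Eng windows 2 and 0, the matches in the Eng window overlapping each other. The Pecam1 window and the 250 bases before the Kdr start held neither. A match is a string of letters and not a shown binding site.

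Kdr was listed at every stage, with a low level in ES. In ES positive sets its locus held 6, 8, 1, 0 and 0 fragments in replicates 1 to 5. HB positive sets held 18, 18, 6, 1 and 0. The HE1 sets held 46, 43, 1, 2 and 0 and the HE2 sets 50, 33, 3, 0 and 0, while HP was at 28, 8, 1, 1 and 1. In replicates 1 and 2 the levels were 0.600 and 0.774 per 10000 in ES and 2.00 to 2.55 in HE1 and HE2. How many of all loci separate in this way was not counted. In a fit of these 2 replicates alone, positive sets of HE1 and HE2 against ES gave 0 of 8 members called, where 35 of 18573 loci were. Each stage other than HP had 1 or 2 of the shallow replicates at 0. With all 5 replicates pooled, the positive level was 0.626 in ES and 1.49 in HB, then 2.06 and 2.43 in HE1 and HE2, and 1.45 in HP. The Negative sets showed the same order of ES below the rest, at 0.564, 1.75, 2.15, 1.72 and 1.47. Without the 4 HE1 libraries, the HE1 levels were 2.00 (positive) and 1.84 (Negative).

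Within the Kdr locus the start was listed at every stage, while the named distal sites held no fragment in ES. The start (chr5:75978061-75978979, 54 distinct fragments in 43 of 95 libraries) held 11, 14, 23, 23 and 14 fragments in the positive sets of ES, HB, HE1, HE2 and HP, and 3, 8, 11, 5 and 4 in the Negative sets. Without the 4 HE1 libraries the HE1 sums of the start became 17 and 4. Per 10000 listed, the start at HE1 was at 0.515 in positive and 0.607 in Negative sets. The sums of the start follow lists of unequal size and do not show a change between stages. The intronic site at +16.1 kb (chr5:75961946-75962902, 46 distinct fragments in 31 libraries) held 0 in ES, then 13, 22, 16 and 8 in positive sets and 7, 7, 2 and 1 in Negative sets. At this site the HE1 sums became 15 and 1 without those libraries. Its HB sums of 13 and 7 came from 288679 positive and 97102 Negative fragments. By replicate, its positive counts in HB were 7, 5, 1, 0 and 0 and in HE1 10, 12, 0, 0 and 0. The site at -35.5 kb held 0 in ES and HB and 4, 10 and 4 in HE1, HE2 and HP positive sets. A count of 0 in the ES positive lists allows up to 0.125 fragments per 10000 (3 of 239751 listed), and in the smaller ES Negative lists up to 0.338, for counting error only. The sorted lists had been limited to open chromatin peaks, and the sources used here do not give whether those peaks came from the same stage, so a site without a peak at a stage and a site without fragments there cannot be told apart.

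Flt1 followed a like order. Its locus held 5, 8, 3, 0 and 2 fragments in ES positive sets and 25, 24, 5, 0 and 2 in those of HB. HE1 sets held 50, 46, 0, 2 and 0 and HE2 sets 36, 35, 6, 0 and 0, while HP was at 41, 12, 0, 0 and 1. The pooled positive level was 0.751 in ES and 1.94 in HB, then 2.19 and 2.18 in HE1 and HE2, and 2.00 in HP. Negative sets also had ES below the rest, at 0.902, 2.47, 2.43, 1.85 and 1.34. HE1 was at 2.37 (positive) and 3.45 (Negative) without the 4 HE1 libraries. In replicates 1 and 2 each later stage was above ES, which was not counted over all loci, and the shallow replicates overlapped with ES. The start (50 distinct fragments, 35 libraries) was listed at every stage in both sets. The intronic site at +68.0 kb (chr5:147657722-147658386, 38 distinct fragments in 33 libraries) held 0 in ES and 15, 13, 17 and 15 in the later positive sets, with 10 for HE1 without the 4 libraries. The intronic site at +4.31 kb held 0 in ES and HB and 16, 13 and 9 in HE1, HE2 and HP. The third, at +105.6 kb, went against this order, with 5 in ES and 0 in HB, then 13 and 11 in HE1 and HE2, and 1 in HP.

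At Flt4 the pooled positive level was 2.79 in ES and 2.63 in HB, then 2.28 and 2.75 in HE1 and HE2, and 3.15 in HP (HE1 2.18 without the 4 libraries), and most of that came from the Cnot6 start. The Flt4 start held 1, 7, 6, 5 and 4 fragments in positive sets and 1, 2, 1, 1 and 0 in Negative sets. Its intronic site at +22.1 kb held 0 in ES and 7, 6, 5 and 5 afterwards, and that at +23.1 kb was listed in HE1 (8) and HE2 (2) positive sets, with 0 in HB and HP.

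For the angiopoietin receptors the locus level and the counts at the gene's own sites are given apart. The Tie1 locus had a pooled positive level of 3.09 in ES and 3.46 in HB, then 3.78 and 4.08 in HE1 and HE2, and 3.71 in HP (HE1 3.90 without the 4 libraries), much of it at the starts of Cdc20 and Elovl1. The Tie1 start itself (chr4:118489289-118490339, 68 distinct fragments in 23 libraries) was at 0 in all 20 ES and HB sets. Its positive sets held 17, 21, 0, 0 and 0 in HE1, 16, 7, 1, 0 and 0 in HE2 and 11, 1, 0, 0 and 0 in HP. Its Negative sets held 15, 10, 0, 0 and 0, then 6, 2, 0, 0 and 0, and 4, 3, 0, 1 and 0. Without the 4 HE1 libraries the HE1 sums of 38 and 25 became 23 and 10. Of the distal sites around Tie1, that at +24.3 kb held 0 in ES and 4, 7, 10 and 5 in the later positive sets.

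Tek, although TIE2 was used to sort HE1 and HE2, was thinly covered, with 53 distinct fragments. Its start was listed at all stages, with 9, 5, 5, 6 and 4 fragments in positive and 4, 1, 2, 3 and 1 in Negative sets. The intronic site at +7.20 kb held 0 in ES and HB and 9, 7 and 3 in HE1, HE2 and HP positive sets, and 3, 1 and 0 in Negative sets, the HE1 sums being 8 and 2 without the 4 libraries. The site at -24.0 kb was listed in HE1 (2) and HE2 (3), and that at +29.4 kb in HE2 (4) and HP (1) positive sets.

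Some Cdh5 sites were listed at HE1 and HE2 alone, a pattern that was not counted over all sites. The Cdh5 start (chr8:104101179-104101986, 25 distinct fragments in 15 libraries) and the sites at -5.77 kb (27 in 17) and -4.73 kb (24 in 16) held fragments in HE1 and HE2 sets and none in ES, HB or HP. The -5.77 kb site held 5, 10, 0, 0 and 1 in HE1 positive sets and 5, 4, 5, 0 and 0 in HE2, and its Negative sets held 7, 1, 0, 0 and 0 and 1, 1, 0, 0 and 0. The start held 7, 12, 0, 0 and 0 and 8, 5, 0, 0 and 0 in positive sets. A 0 in the HP lists allows up to 0.111 per 10000 in positive and 0.366 in Negative sets. Without the 4 HE1 libraries, the HE1 positive sums of 19, 16 and 17 at the start, -5.77 kb and -4.73 kb became 11, 10 and 15, and the HE1 Negative sums of 7 and 8 at the start and -5.77 kb both became 1. In contrast, the site at -2.17 kb (42 distinct fragments in 30 libraries) was listed throughout, with 6, 3, 13, 18 and 12 in positive sets. Over the whole locus, the pooled positive level was 1.21, 0.797, 2.49, 2.49 and 1.34 from ES to HP, and HE1 was at 2.43 without the 4 libraries. Negative sets also stood highest in HE1 and HE2, at 0.789, 1.03, 2.70, 1.99 and 1.10, with HE1 at 2.53 without the 4 libraries.

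At Pecam1 the site over an internal start 35.4 kb into the gene (chr11:106715005-106715669, 47 distinct fragments in 25 libraries) was at 0 in ES and HB and held 23, 21 and 14 fragments in HE1, HE2 and HP positive sets and 6, 4 and 7 in Negative sets. Its HE1 sums of 23 and 6 became 17 and 0 without the 4 HE1 libraries. Per 10000 listed, HE1 with all libraries was at 0.515 (positive) and 0.331 (Negative). The HP sums of 14 and 7 came from 269630 positive and 81859 Negative fragments, so their order is not that of levels. The site at -45.2 kb held 0, 0, 7, 16 and 8 in positive sets. The intronic sites at +27.6 and +75.8 kb were listed at all 5 stages. For Eng, the site at -8.59 kb (chr2:32637761-32638336, 49 distinct fragments in 25 libraries) was at 0 in ES and HB and held 10, 11, 0, 0 and 0 in HE1, 10, 6, 0, 0 and 0 in HE2 and 9, 4, 0, 1 and 0 in HP positive sets, with 12, 4 and 7 in Negative sets. Without the 4 libraries its HE1 sums of 21 and 12 became 13 and 1. Per 10000 listed, HE1 at this site was at 0.470 (positive) and 0.662 (Negative), and at 0.400 and 0.230 without the 4 libraries. The Eng start held 4, 3, 6, 8 and 2 in positive sets, and the sites at -63.0 and +68.6 kb were listed at every stage. Emcn was listed in HE1, HE2 and HP only, its main site at -47.8 kb holding 5 and 5 fragments in HE2 and HP positive sets and 2 in HP Negative sets.

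**Figure D2:**
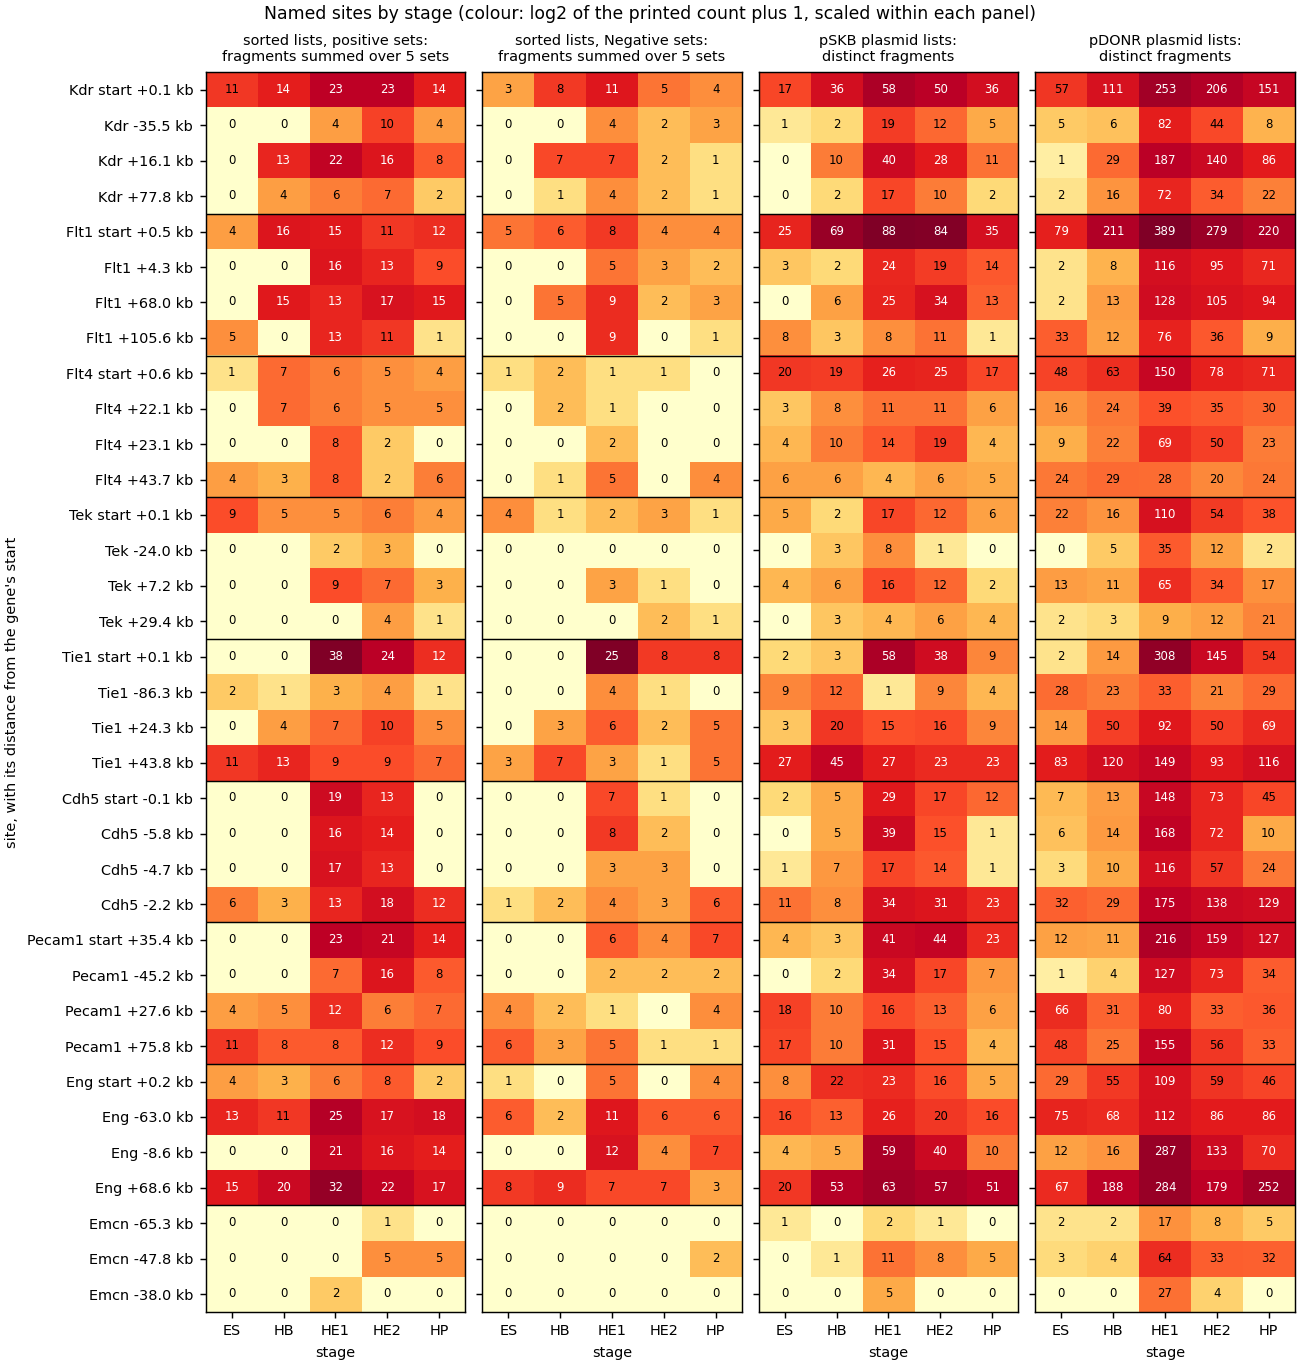
Fragments at the 35 named sites (rows, with distance from the gene's start in kb) at each stage (columns) in positive sets, Negative sets, pSKB and pDONR plasmid lists; numbers are counts, and colour is log2 of the count plus 1, scaled within each panel. The Tie1 start, the Cdh5 start with its -5.77 and -4.73 kb sites, the internal Pecam1 start and the Eng -8.59 kb site read 0 in both sorted panels at ES and HB.

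Taking the named sites as a group, 13 of 27 distal sites and 3 of 8 start sites were first listed after HB, and 6 distal sites and 1 start site were in neither ES, HB nor HP lists. The share of all sites absent from ES, HB and HP lists was not counted, so that pattern is no result about these loci. Over all distal sites of the 9 loci, 67 of 167 (40.1%) were in HE1 or HE2 lists and in no ES or HB list, where 39.2% of all 58911 distal sites were. For promoter sites it was 6 of 39 (15.4%), where 9.86% of all were. The distal share is near that of all sites, so it is no result about the 9 loci. The named sites were picked for their fragment totals over all lists, to which HE1 and HE2, with the largest lists, gave most.

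With equal weight for every set, no difference between stages passed the test at these loci. In a limma fit over 18672 loci (log2 of fragments per 10000 plus 1, 25 positive and 25 Negative sets), 0 of the 8 members tested were called in HE1 and HE2 against ES, where 13 loci (0.0696%) were called over all. In Negative sets the same contrast gave 0 members and again 0.0696% of all loci. Emcn was listed in fewer than 10 sets and was not tested. Positive sets of HE1 and HE2 differed from ES by 0.77 on the log2 scale at Kdr (SE 0.476, limma adjusted p = 1.00), by 0.68 at Cdh5 (SE 0.514), by 0.30 at Pecam1 and 0.08 at Tie1, and by -0.13 at Flt1, -0.18 at Tek and Eng and -0.62 at Flt4. The median over the 8 members was -0.02 and that over all loci -0.06. Over all 13 contrasts of stage and sign, 0 or 1 of the 8 members had an unadjusted p under 0.05, where 1.69% to 6.34% of all loci did. The 1 was Flt4 in HB positive against Negative (-1.36, SE 0.673, limma adjusted p = 1.00), where 2.70% of all loci were under 0.05. On simulated sets with 200 loci raised 4-fold in ES positive sets, this fit called 7 of them and 0 others, and voom weights 165 and 10 others. A 4-fold rise of that kind, in the positive sets of 1 stage, would thus mostly be missed with equal weights. A rise in HE1 and HE2 was not simulated. This fit gives each set the same weight, and the shallow replicates 3 to 5 held 0 to 6 fragments at Kdr.

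Weighting the sets by their precision gave other calls. In limma with voom weights, positive sets of HE1 and HE2 were higher than ES at Kdr (1.67, SE 0.316, adjusted p = 0.00173) and at Flt1 (1.44, SE 0.365, adjusted p = 0.0455), where 0.573% of all loci were called in either direction. Cdh5 was at 1.05 (SE 0.340, adjusted p = 0.225) and the other 5 were between -0.13 and 0.22. Negative sets gave 1.57 at Kdr (SE 0.367, adjusted p = 0.0424; 0.225% of all loci), and 1.32 at Flt1 (adjusted p = 0.265). The difference of this contrast between positive and Negative sets was 0.10 at Kdr (SE 0.485) and 0.12 at Flt1 (SE 0.558), with an adjusted p of 1.00 for both. With replicates 1 and 2 only, 1 member was called in any stage contrast, Kdr in Negative sets (0.81, SE 0.221, limma adjusted p = 0.0370), where 3.72% of all loci were. Without the 4 HE1 libraries, voom weights gave 1.68 at Kdr (SE 0.326, adjusted p = 0.00237) and 1.52 at Flt1 (SE 0.381, adjusted p = 0.0385) in positive sets, where 0.699% of all loci were called. In Negative sets Kdr was then at 1.57 (SE 0.400, adjusted p = 0.0700), where 0.301% of all loci were called, and the call was lost. The cloned libraries in the reporter vector (pSKB) differed by stage as well. Kdr was at 0.656 per 10000 in the ES list and at 2.11 and 1.89 in those of HE1 and HE2. Flt1 was at 1.67, 2.32 and 2.26. Whether the stage calls go beyond these differences was not tested.

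At single sites, limma with equal weights called 0 of 65 tested member sites in any stage contrast, where 8 of 22798 sites (0.0351%) were called for HE1 and HE2 against ES and 0.0175% for HB against ES. The members at an unadjusted p under 0.05 were 1.54% to 12.3% of those tested per stage contrast, where 2.22% to 5.75% of all sites were, the highest being 8 of 65 in HB against ES. With voom weights, 5 calls were made at member sites between stages, in HE1 against HB (1.77% of all sites called), HE1 and HE2 against ES (1.25%) and HP against HE2 (3.15%). They fell on the Tie1 start, the internal Pecam1 start, Eng -8.59 kb and Cdh5 -5.77 kb, and in each of the 5 one of the groups compared held 0 fragments in all its sets. Such a site enters the fit only through the stages where it is listed, so these calls were fixed in direction by the filter, no fold is given, and the sites are described by their counts alone. The same holds for all 8 calls made with voom weights without the 4 HE1 libraries (2.59%, 1.77% and 3.47% of all sites called in those contrasts), and for the Tie1 start with replicates 1 and 2 only. The other call with replicates 1 and 2 only was a promoter site of another gene in the Eng locus, lower in Negative sets of HE1 and HE2 than of ES (-1.02, SE 0.234), where 2.01% of all sites were called. The limit from the peak filter given for Kdr holds for each of these sites.

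Between positive and Negative sets, no member locus passed the test. The question is whether fragments of an endothelial gene were listed more often from cells with YFP than from cells without. Averaged over the stages, positive minus Negative was between -0.25 (Tie1, SE 0.328) and 0.31 (Eng, SE 0.322) on the log2 scale, with 4 of 8 members above 0 and a median of 0.10, where the median over all loci was 0.15. limma called 0 members and 0% of all loci, with 1183 of 18672 loci and 0 members at an unadjusted p under 0.05. For sites, 0 of 65 members and 0% of all were called. At an unadjusted p under 0.05 were 2 member sites (3.08%), where 4.07% of all sites were. With voom weights, 4 member sites were lower in positive sets, the Tie1 start (-1.21, SE 0.347, adjusted p = 0.0343), Tie1 +24.3 kb, Kdr -35.5 kb and Pecam1 +13.5 kb, where 8.3% of all sites were called and the median over all sites was -0.50. These 4 sites held a fragment in only 10 to 16 of 50 sets, and the voom value of a set at 0 depends on the size of its list. When the 4 HE1 libraries were left out, the Tie1 start, Tie1 +24.3 kb and Kdr -35.5 kb were called again, with Flt1 +18.3 kb and Cdh5 -2.17 kb, where 14.9% of all sites were, and Pecam1 +13.5 kb was not tested. In HE1 and HE2, where the genes of this group are known to be on, the median over members was -0.05 and 0.27. At the Tie1 start in HE1, the 38 positive fragments came from 446578 listed and the 25 Negative ones from 181319, or 0.851 and 1.38 per 10000, and without the 4 HE1 libraries the levels were 0.707 and 2.302.

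Between brighter gates and the Low gate, no member passed the test in the fit with equal weights. High minus low (Medium, High and Medium/High lists against the Low list) averaged between -0.29 (Tek, SE 0.205) and 0.47 (Eng, SE 0.365) over the 9 members, with a median of 0.01 (all loci 0.08). limma called 0 members and 0% of 18562 loci, with 0 members and 588 loci at an unadjusted p under 0.05. For sites it called 0 of 61 members and 0% of all. At an unadjusted p under 0.05 were 3 member sites (4.92%), where 3.19% of all sites were. With voom weights, Cdh5 -2.17 kb (-1.50, SE 0.308, adjusted p = 0.0109) and Pecam1 +27.6 kb (-1.11, SE 0.309, adjusted p = 0.0427) were lower in the brighter gates, where 2.69% of all sites were called and their median was -0.40. When the 4 HE1 libraries were left out, the first was called (-1.50, adjusted p = 0.0108) and the second was at -1.03 (adjusted p = 0.0586), where 1.42% of all sites were called. By gate, the Kdr +16.1 kb site was listed in 9 of 20 High, 7 of 20 Medium, 6 of 25 Low and 8 of 25 Negative libraries. The Tie1 start was in 5 of 20 High, 7 of 20 Medium, 4 of 25 Low and 7 of 25 Negative libraries. Cdh5 -5.77 kb was in 4, 5, 3 and 4 of these, with 11, 15, 3 and 10 fragments, and in 1 of 5 merged Medium/High libraries. Lists differed in size by gate. At HE1 the high sets listed 358494 fragments, the low sets 114395 and the Negative sets 181319. Shares by gate over all sites were not counted, so these gate counts are no result about brightness.

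The plasmid lists, which come from the cloned fragments and not from sorted cells, also differed by stage. Each stage had its own library, sequenced in the first vector (pDONR) and in the reporter vector (pSKB), once each, so no test was made. In pSKB lists the Kdr locus held 111 of 1693035 distinct fragments for ES (0.656 per 10000), 321 for HB (1.64), 365 for HE1 (2.11), 315 for HE2 (1.89) and 153 for HP (1.17). Flt4 and Tie1 stayed between 1.97 and 2.13 and between 2.53 and 2.73. Cdh5 was at 1.40, 1.68, 2.304, 1.92 and 1.70, and Emcn at 0.230, 0.184, 0.398, 0.384 and 0.238. The pDONR lists gave a like order, with Kdr at 0.732, 1.67, 2.17, 1.95 and 1.27.

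Single sites differed more. Kdr +16.1 kb had 0 pSKB fragments in the ES library and 10, 40, 28 and 11 in HB, HE1, HE2 and HP. With ES set at 3 fragments, HE1 was 13.0-fold higher. Folds against these 3 fragments leave out the counting error of the HE1 count and are no lower limits. The Tie1 start had 2, 3, 58, 38 and 9, a ratio of HE1 to ES of 28.3 (95% exact interval 7.50 to 240). Cdh5 -5.77 kb had 0, 5, 39, 15 and 1 (HE1 12.7-fold higher against 3 fragments). Pecam1 -45.2 kb had 0, 2, 34, 17 and 7 (11.1-fold, likewise) and Flt1 +68.0 kb 0, 6, 25, 34 and 13 (8.15-fold, likewise). Eng -8.59 kb had 4, 5, 59, 40 and 10 (ratio 14.4, interval 5.34 to 54.7). The starts listed at every stage had smaller ratios, with HE1 over ES at 3.34 (1.92 to 6.11) for Kdr, 3.44 (2.19 to 5.60) for Flt1, 3.32 (1.18 to 11.5) for Tek, 2.81 (1.21 to 7.27) for Eng and 1.27 (0.682 to 2.40) for Flt4. The sites with the larger ratios held no fragment in any ES sorted list, while each of these starts held some. Sorted fragments came from these libraries, so that choice favours few ES plasmid fragments at the former. The contrast with the starts is therefore no result. Intervals cover counting error only. In the larger pDONR lists the Tie1 start had 2, 14, 308, 145 and 54 fragments and Cdh5 -5.77 kb 6, 14, 168, 72 and 10.

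Over the 167 distal sites of the loci, 16 (9.58%) were at least 4 times higher in the HE1 than in the ES pSKB list and 4 (2.40%) at least 4 times lower, where 3.23% and 2.88% of all 58911 distal sites were. Of the 39 promoter sites, 4 (10.3%) were higher and 1 (2.56%) lower, where 1.32% and 2.25% of all were. In pDONR lists, 19.8% of the member distal sites were higher and 10.2% lower, against 12.6% and 12.4% of all. These shares are counts in 1 list per stage and were not tested.

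Fragments absent from a sorted stage were at times present in its plasmid library. The Cdh5 start had 12 pSKB and 45 pDONR fragments for HP and none in the HP sorted lists. Flt4 +23.1 kb had 10 and 22 for HB and none in HB lists, and the Tie1 start had 3 and 14 for HB and none. Of all pSKB fragments over member sites, 405 of 11128 (3.64%) were found again, identical, in positive lists of their stage. By stage the share was 2.23% for ES and 1.01% for HB, then 7.52% and 3.87% for HE1 and HE2, and 1.70% for HP, and in Negative lists 1.20%, 0.703%, 3.43%, 0.789% and 0.679%. Without the 4 HE1 libraries the HE1 shares were 5.16% in positive and 0.624% in Negative lists, where 4.99% and 0.655% were found over all sites. Over all sites the positive shares were 2.66%, 1.18%, 7.14%, 4.17% and 1.75%, each inside the 95% Wilson interval of the members. In Negative lists this held at every stage but HE2, where all sites were at 1.23% and the members at 0.789% (interval 0.511% to 1.22%). In turn, 81.7% of the 3210 listed member fragments were identical to a plasmid fragment, where 80.5% of all listed fragments were, and 13 were identical to a fragment of the HM-1 control lists, as were 3731 of all. Read as exact matches to the lists used here, the stated filters against plasmid and HM-1 fragments are thus not met by all listed fragments.

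**Figure D3:**
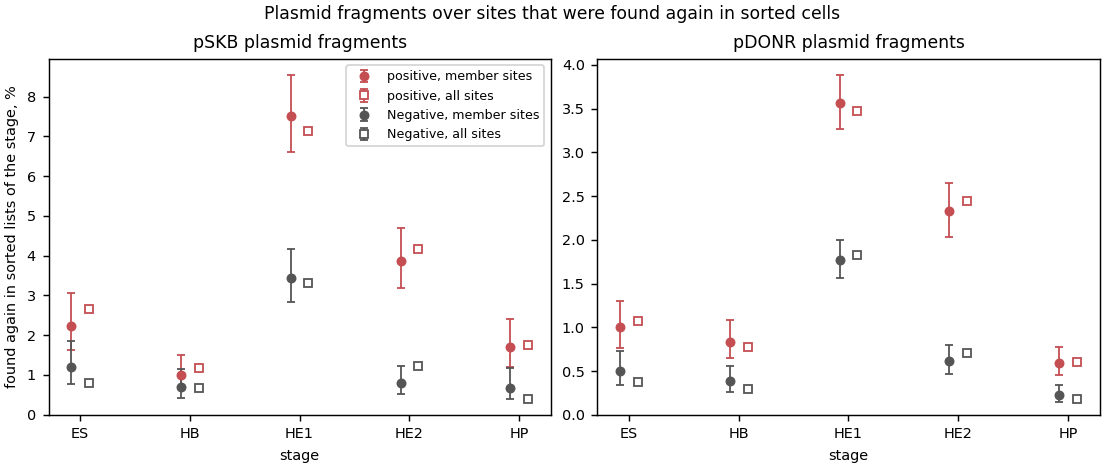
Share of plasmid fragments over sites that were found again, identical, in sorted lists of the same stage (y axis, percent), for pSKB (left) and pDONR (right); filled circles are sites of the 9 loci, open squares all sites, red positive and grey Negative lists, and bars are 95% Wilson intervals. For pSKB, HE1 stands highest at 7.52% in positive and 3.43% in Negative lists (5.16% and 0.624% without the 4 HE1 libraries that share fragments), and the squares of the positive lists lie within the members' bars.

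Other genes of these pathways were fitted in the same tables. Of 39 ligands, co-receptors, receptors, junction and endothelial genes, all 39 were tested, and limma called 0 higher and 0 lower in every contrast, with 0 to 3 at an unadjusted p under 0.05, where 1.41% to 6.34% of all loci were. For HE1 and HE2 against ES their median was -0.20, where that of all loci was -0.06. With voom weights 1 was called higher in that contrast, Plxnd1, the receptor of semaphorin 3E, where 0.482% of all loci were called higher, and 7 of 39 (17.9%) had an unadjusted p under 0.05, where 8.16% of all loci did.

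The loci whose levels over the 25 positive sets were most like those of each member are given as a description, since all of them share the same lists and depths. They were Iffo2 for Kdr (Pearson r = 0.836), Crybg3 for Flt1 (0.919), Slc30a5 for Flt4 (0.953), Ifih1 for Tek (0.789), Lmf1 for Tie1 (0.886), Gm11985 for Cdh5 (0.913), Ino80 for Pecam1 (0.929), Slc25a44 for Eng (0.865) and Lyzl1 for Emcn (0.911), out of 18594 candidate loci.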

How the data were processed

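Per the labels and the study's methods, open-chromatin fragments from 5 stages were screened in 95 sorted libraries, with 10 plasmid lists and 3 lists from untransfected HM-1 cells. The authors aligned the reads to mm10, removed duplicates, kept uniquely placed fragments and, as the methods state, filtered the lists against HM-1 fragments, plasmid fragments and open chromatin peaks, with distal meaning over 1.5 kb from a start. The sorted lists hold intervals without read counts. The plasmid and HM-1 lists, as deposited by the authors, hold counts of reads per fragment.

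From these, distinct fragments were counted per locus (GENCODE vM21) and merged site, in positive and Negative sets and in high and low sets. log2 of fragments per 10000 listed plus 1 was fitted with limma 3.58.1 in R 4.3.3 over all features with a fragment in at least 10 sets, with Benjamini-Hochberg adjustment within each contrast and a threshold of 0.05. On simulated sets with 200 sites raised 4-fold, equal weights called 3 of them and 0 others, and voom weights called 31 and 16 others. At 16-fold, equal weights called 170 and 16 others, and voom weights 135 and 33 others. The stated error rate was exceeded by voom weights at both folds and by equal weights at 16-fold. With 200 loci raised, voom weights called 165 and 10 others at 4-fold and 197 and 22 others at 16-fold, also above it. Equal weights called 7 loci and 0 others at 4-fold and 199 and 1 other at 16-fold. Voom calls at sites and loci are therefore given as an alternative. Sets held 720 to 229660 fragments. Binomial intervals (Wilson) and the limits from a count of 0 (3 fragments) cover counting error only. Groups came from the titles. Same-numbered positive and Negative sets correlated above 0.1 in 18 of 25 pairs (median 0.171). In 16 of the 25, the positive set correlated best with the Negative set of its own number. The sets thus share some structure by replicate number, which the main fits left out. A replicate block was fitted as an alternative.

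The members, gene lists and tests were chosen with earlier results of these data known. Sites named are those over each member's starts, the 3 distal sites of each locus with most fragments, and any past the threshold, with the most alike other locus for each member, the pathway genes past the threshold, and neighbours whose start held more fragments than the member's. The Flt1 +18.3 kb and Pecam1 +13.5 kb sites and the promoter site in the Eng locus were also named where an alternative called them. Some sites and a neighbouring start that met these rules are not described one by one. Alternatives changed the pseudocount, filter, weights, replicates, block, flanks, fragment class, gates, merging and plasmid matching. Restricting to replicates 1 and 2 and leaving out 4 HE1 libraries, with equal or voom weights, were chosen after seeing the data.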

Additional observations from a re-analysis of the deposited data

Results flagged for a closer look

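In 18 of 85 groups of 5 sets, 1 set stood apart from the others in its log2 level at a member locus, by the gap to its nearest neighbour as a share of the group's range. The cut of 0.71 flags about 1 in 20 groups of normal values with equal spread. These sets differed widely in depth and many held 0 fragments, so that rate does not hold here. Most of the flagged sets were shallow ones with few fragments at the locus. In positive sets, replicate 5 was lowest, with 0 fragments, at Kdr in HB (0.913) and HE1 (0.720), at Flt4 in HB (0.723) and at Tie1 in HB (0.793) and HP (0.851). Tek was highest with 1 fragment in ES positive replicate 5 (0.734), in HB positive (0.714), HB Negative (1.000), HE1 Negative (0.717) and HP positive (0.797) replicate 4. Eng was lowest in ES positive replicate 4 (0.822, 3 fragments), ES Negative replicate 4 (0.751, 0 fragments), HB Negative replicate 5 (0.832, 0 fragments), HE2 positive replicate 4 (0.894, 0 fragments), HP positive replicate 3 (0.790, 1 fragment) and HP Negative replicate 4 (0.712, 5 fragments). Emcn was highest in HE1 Negative replicate 1 (1.000, 1 fragment) and HP Negative replicate 2 (1.000, 2 fragments), each the only set of its group with a fragment.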

How the results depend on the processing

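The fits with equal weights called 0 members in all 6 families of comparison, and so did every alternative other than voom weights (with all libraries or without the 4 HE1 libraries) and replicates 1 and 2 only, each single replicate left out (0 to 0 calls) and the replicate block, with 0 calls, included. Over the families, 105 counts stayed the same. With voom weights the calls were 3 for loci between stages, 5 for sites between stages, 4 for sites in positive against Negative sets and 2 for sites in high against low gates. With voom weights and without the 4 HE1 libraries they were 2, 8, 5 and 1. All site calls between stages with voom weights (5 and 8) compared a group at 0 in every set and carry no support. With replicates 1 and 2 only they were 1 for loci and 2 for sites between stages. Plasmid recovery, 3.64% in pSKB lists, was 1.98% in pDONR lists, 6.54% with ends within 5 bp and 3.03% without the 4 HE1 libraries. For HE1 and HE2 against ES, where no member was called with equal weights, signs turned as follows. Flt1 was at 1.44 with voom weights, 0.98 in replicates 1 and 2, 0.0338 with promoter fragments only, and -0.40 to 0.68 with each replicate left out. Tek was at 0.22 with voom weights, 0.0041 in replicates 1 and 2, 0.0035 without the 4 HE1 libraries, 0.19 with distal fragments only and -0.62 to 0.40. Eng was at 0.0647 with voom weights, 0.16 in replicates 1 and 2, 0.39 for the gene body with 2 kb, 0.0693 with distal fragments only and -0.28 to 0.16. Tie1 was at -0.62 with distal fragments only and -0.0108 to 0.21 with each replicate left out, and Pecam1 at -0.0396 for the gene body with 2 kb and -0.89 with distal fragments only. The median over members of positive minus Negative was -0.0738 with voom weights, -0.0704 with High lists only, -0.0371 with promoter fragments only and -0.0693 to 0.21 with each replicate left out. That of high minus low was -0.23 with voom weights, -0.0891 in replicates 1 and 2, -0.0593 with 50 kb flanks, -0.0565 with Medium left out, -0.11 for the gene body, -0.0141 with distal and -0.0295 with promoter fragments only, and -0.0675 to 0.0729 with each replicate left out. With voom weights and without the 4 HE1 libraries Flt1 was at 1.52, Tek at 0.42, Eng at 0.0758, the median of positive minus Negative at -0.11 and that of high minus low at -0.16. The cause was not tested. Depth limits what replicates 3 to 5 show, since most sites had 0 fragments there.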
